A study of Mus musculus with 2 samples.

Results

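The Egr and Klf zinc finger genes and Ier2 are stimulus-responsive regulators, and 10 of them were examined for binding of the transcription factor Aiolos (Ikzf3) in mouse natural killer (NK) cells: Egr1, Egr2, Egr3, Klf2, Klf3, Klf4, Klf6, Klf10, Klf13 and Ier2. They were chosen by name, and every peak that the authors' annotation assigned to one of these symbols was taken. This gave 5 of the 1404 peaks in the list, assigned to 4 of the 10 genes. Binding was measured by CUT&RUN, in which protein A fused to micrococcal nuclease is directed to an antibody and releases the DNA beneath it for sequencing. The study had 2 libraries of splenic NK cells, 1 with a primary antibody against Aiolos and 1 with no primary antibody. The cells of both groups had been expanded in medium with 50 ng/ml interleukin-15 until a sample held at least 500000 cells. The labels give no genotype, strain, age or further stimulation, so the peaks describe cells growing in interleukin-15 and not a change after a stimulus. With 1 library per group there was no replicate error and no test between groups. Intervals of tags and folds below are 95% exact Poisson intervals that cover counting error of the summit tags only, with the background taken as fixed. Intervals of shares are 95% Clopper-Pearson intervals, which take genes or peaks as independent draws. The 10 genes were chosen by name, so the intervals of their shares show only how few were counted and test nothing.

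Immediate-early genes are transcribed within minutes of a signal and need no new protein for it. Receptor signals reach many of them through MAP kinases and serum response factor, which binds the CArG box together with Elk family partners. Egr proteins then bind GC-rich sites and switch on a second wave of genes, while the corepressors Nab1 and Nab2 restrain them. Klf proteins bind GC-rich and CACCC sites. Klf2 is known in lymphocytes for quiescence and for expression of trafficking receptors such as S1pr1. Klf10 is induced by TGF-beta. Aiolos belongs to the Ikaros family of zinc finger proteins, whose fingers recognise a GGGAA core.

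Aiolos peaks were assigned to Egr1, Klf6, Klf10 and Ier2, and none to Egr2, Egr3, Klf2, Klf3, Klf4 or Klf13. The share with a peak was 40% (interval 12.2 to 73.8), beside 5.38% of the 21900 protein-coding genes in the RefSeq gene table. Promoter peaks, whose centre lay within 1000 bp of the start of the annotated transcript, were assigned to 3 of the 10 genes (30%), beside 3.79% of protein-coding genes. Peaks elsewhere were assigned to 2 of the 10 (20%), beside 1.77% of protein-coding genes. These genes were grouped with earlier results of the same list known, so their shares are a description. The list was shallow: a summit held 4 to 63 tags, with a median of 8, and a gene with no peak is a gene where no enrichment was called at this depth. Natural killer identity cannot be checked by RNA here. Among 7 NK marker genes Klrb1c and Gzmb had an assigned peak and Ncr1, Nkg7, Prf1, Eomes and Tbx21 had none, and none of 10 markers of T, B and myeloid cells had one. With 5.38% of all protein-coding genes having a peak, counts from lists this short are no check of cell identity.

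Egr1, the zinc finger gene that is a standard readout of MAP kinase signalling, had the strongest peak of the set and was the only one of the 10 genes with more than 1 peak. On chromosome 18 (mm10), the peak from 34860501 to 34861109 had its summit 219 bp upstream of the start of the Egr1 transcript. The sequence under it was not at hand, so no motif was looked for there. The summit held 20 tags (interval 12.2 to 30.9) in the Aiolos antibody library over a local background of 0.485 tags, a fold enrichment of 14.1 (8.90 to 21.5) with a -log10 q of 21.2. It ranked 24 of 1404 peaks by fold and 20 of the 910 promoter peaks. The 3 nearest folds above it in the list were 14.2, 14.3 and 14.3 and the nearest below it 13.9, so its exact rank was not resolved by the counts. A longer Egr1 transcript in the authors' annotation starts farther upstream, and measured from there the same summit lay 1165 bp inside the transcript.

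The other Egr1 peak lay in intergenic sequence upstream, on chromosome 18 at 34855811 to 34856289. Its summit was 3.73 kb upstream of the longer transcript and 5.12 kb upstream of the RefSeq start of Egr1. The antibody library had 5 tags there (1.62 to 11.7) over a background of 0.186 tags, a fold of 5.06 (2.21 to 10.7) with a -log10 q of 3.29. That background is the lowest value in the list, and 74 peaks in all had 5 tags on it, so their folds are the same. The 2 Egr1 summits were 4.90 kb apart. The promoter peak was 2.79 times as enriched as the upstream one, but their counting intervals overlapped between 8.90 and 10.7. Reep2, the nearest other protein-coding gene of the table, lay 8.63 kb from the upstream summit and had no assigned peak, nor had Kdm3b or Etf1, the remaining genes within 50 kb.

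**Figure D1:**
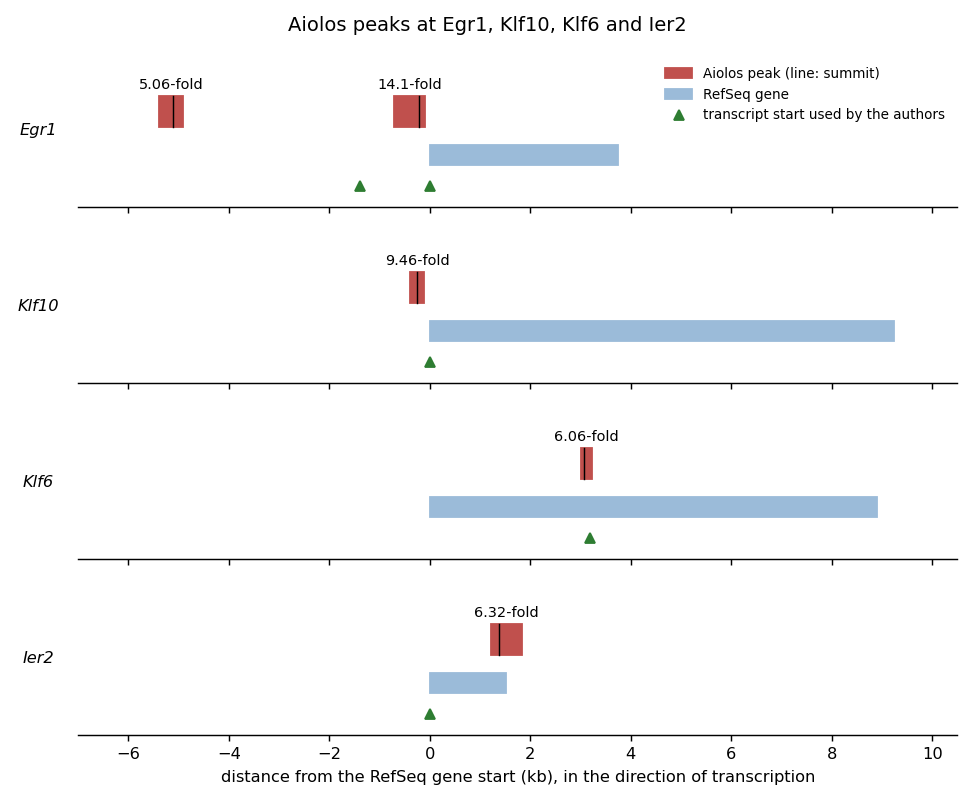
Aiolos peaks (red boxes, black line at the summit) drawn to scale along Egr1, Klf10, Klf6 and Ier2, with the distance from the RefSeq gene start in kb along the direction of transcription; blue bars are the RefSeq genes, green triangles the transcript starts used by the authors, and labels give the authors' fold enrichment. Egr1 and Klf10 have a peak just before the gene start, the Klf6 peak lies 3.06 kb inside the gene beside an internal transcript start, and the Ier2 peak covers the end of the gene.

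Of the 6 Klf genes, Klf10 and Klf6 had a peak, 1 each. Klf10, which encodes a TGF-beta-inducible repressor, had a peak on chromosome 15 at 38300821 to 38301113. Its summit lay 271 bp upstream of the annotated transcript and 266 bp upstream of the RefSeq start, so both annotations place it at the promoter. The antibody library held 14 tags (7.65 to 23.5) over a background of 0.586 tags, a fold of 9.46 (5.46 to 15.4) with a -log10 q of 10.95. It ranked 176 of 1404 by fold, above 87.0% of the list. No other protein-coding gene lay within 50 kb of it.

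Klf6, a widely expressed member of the family, had its peak on chromosome 13 at 5864502 to 5864718, with 8 tags (3.45 to 15.8) over a background of 0.485 tags. The fold was 6.06 (2.999 to 11.3) and the -log10 q was 4.43, so this peak was below the list's median fold of 6.44. It counts as a promoter peak through a transcript that starts inside the gene: the summit was 125 bp upstream of that start but 3.06 kb downstream of the RefSeq start. With the RefSeq start of each gene as reference, a choice made after the positions were seen, the promoter peaks of the set numbered 2 in place of 3. The background value was the same as at the Egr1 promoter, where the antibody library had 20 tags.

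No peak overlapped the sequences just upstream of the RefSeq starts of Klf2, Klf4 and Klf6, nor those at hand for Egr2, Klf3 and Klf13. Those of Klf2, Klf4 and Klf6 are shown as examples: Klf2 and Klf4 respond to stimuli, and Klf6 carried its peak farther inside. Each is 250 bases long, from RefSeq (GRCm38.p6, the assembly of mm10), written 5' to 3' on the strand of the gene, with the Ikaros core GGGAA, the cyclic AMP response half-site TGACG, the GC box GGGCGG and the CArG box on either strand in capitals. The Klf2 stretch is chr8:72318812-72319061 on the plus strand, that of Klf4 is chr4:55532476-55532725 on the minus strand, and that of Klf6 is chr13:5861239-5861488 on the plus strand.
Klf2: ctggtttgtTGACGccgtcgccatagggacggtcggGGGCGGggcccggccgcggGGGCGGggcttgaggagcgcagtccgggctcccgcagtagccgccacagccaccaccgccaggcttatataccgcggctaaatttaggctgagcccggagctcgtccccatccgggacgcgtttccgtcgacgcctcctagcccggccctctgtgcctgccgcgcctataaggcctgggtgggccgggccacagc
Klf4: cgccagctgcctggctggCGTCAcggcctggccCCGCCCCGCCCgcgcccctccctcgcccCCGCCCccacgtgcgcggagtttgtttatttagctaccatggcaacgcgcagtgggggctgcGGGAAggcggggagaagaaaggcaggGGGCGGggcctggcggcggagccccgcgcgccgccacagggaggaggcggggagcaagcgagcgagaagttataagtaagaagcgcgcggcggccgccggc
Klf6: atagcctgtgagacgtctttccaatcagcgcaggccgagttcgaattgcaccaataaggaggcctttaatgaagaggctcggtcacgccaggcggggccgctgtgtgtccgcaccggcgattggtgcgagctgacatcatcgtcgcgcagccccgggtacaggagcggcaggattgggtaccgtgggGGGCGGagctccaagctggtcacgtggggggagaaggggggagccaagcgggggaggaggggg
The Klf2 stretch held 2 GC boxes, 1 TGACG and 0 GGGAA. The Klf4 stretch held 4 GC boxes, 1 TGACG and 1 GGGAA. The Klf6 stretch held 1 GC box, 0 TGACG and 0 GGGAA. None of the 3 held a CArG box, which among the 6 genes with sequence at hand was found only at Egr2, not shown.

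Ier2, an immediate-early gene for a nuclear protein, had its peak at the end of the gene and not at the start. It lay on chromosome 8 at 84661021 to 84661631, with the summit 1.38 kb downstream of the transcription start in the 3' untranslated region by the authors' annotation. The gene is 1.52 kb long, and the peak ran 310 bp past its end. The antibody library had 7 tags (2.81 to 14.4) over a background of 0.267 tags, a fold of 6.32 (3.01 to 12.2) with a -log10 q of 5.04. Among the 12 peaks that the authors placed in 3' untranslated regions it ranked 2 by fold, beside a median of 5.68 for that class. Nacc1, the nearest other protein-coding gene, lay 9.002 kb from the summit and had no assigned peak, nor had Cacna1a, Trmt1, Lyl1 or Nfix, the remaining genes within 50 kb. Away from Ier2 the nearest peak on the chromosome was that of Junb, an AP-1 gene, at a distance of 316 kb.

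**Figure D2:**
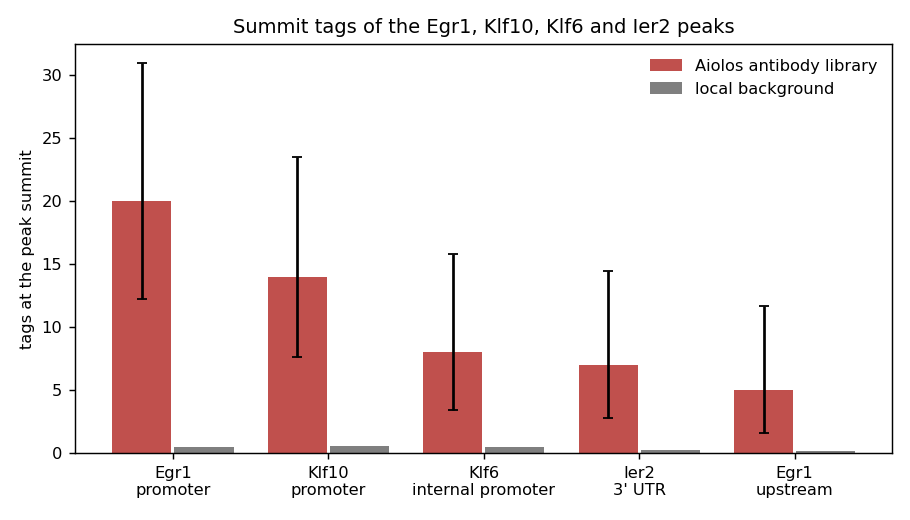
Tags at the summit of each of the 5 peaks in the Aiolos antibody library (red, left) with 95% exact Poisson intervals, and the local background recovered from the authors' values (grey, right). The antibody library held 5 to 20 tags, and the background 0.186 to 0.586 tags.

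The 6 genes with no assigned peak differed in how far the nearest peak lay. Egr2, which together with Egr3 restrains T cell activation, had a peak 7.19 kb beyond its 3' end, at the promoter of Ado, on chromosome 10 at 67549374 to 67549676. That peak had 9 tags and a fold of 8.43 (4.31 to 15.3), and Ado, a thiol dioxygenase gene, lies 2.32 kb from Egr2. For Klf2 the nearest peak was the promoter peak of Ap1m1, 78.7 kb away with a fold of 16.9. For Klf4 it was the promoter peak of Rad23b at 177 kb and 5.80-fold, and for Egr3 an intronic peak of Ppp3cc, the calcineurin gamma subunit gene, at 201 kb and 6.75-fold. Klf3 and Klf13 had no peak nearer than 1242 kb and 2166 kb. The 6 genes without a peak thus include 4 of the 6 Klf genes and 2 of the 3 Egr genes.

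Gene size was not what the rule used. The 10 genes had a median length of 6.53 kb, beside 17.1 kb for all protein-coding genes and 21.9 kb for protein-coding genes with a peak. Of the 10, 8 were shorter than 10 kb (80%), beside 36.2% of protein-coding genes. Ier2 at 1.52 kb and Egr1 at 3.75 kb carried peaks, while Klf2 at 2.59 kb, Egr3 at 5.30 kb and Klf4 at 5.34 kb did not. The longest, Klf13 at 52.6 kb and Klf3 at 29.4 kb, had none.

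At promoters the folds were 14.1 at Egr1, 9.46 at Klf10 and 6.06 at Klf6, and away from promoters they were 6.32 at Ier2 and 5.06 upstream of Egr1. The median was 9.46 at promoters (3 peaks) and 5.69 elsewhere (2 peaks), which differ by 0.73 in log2 units. Over the whole list it was 6.60 at promoters (910 peaks) and 5.90 elsewhere (494 peaks), which differ by 0.16 in log2 units. The Klf6 promoter peak lay below the Ier2 peak, whose summit was 1.38 kb from its start, so the values at promoters and elsewhere overlapped. With opposite ends of the counting intervals of the 2 medians combined, the difference in the set ran from -1.07 to 2.56. This is an outer range and not a 95% interval. No test was made on 5 peaks, which are features of 1 library and not replicates. The promoter share was 60% in the set (3 of 5, interval 14.7 to 94.7) and 64.8% over the list. All 5 peaks together had a median fold of 6.32, beside 6.44 for the list.

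The pattern at Egr1, a promoter peak with a weaker peak outside, was not general in the list. Of 1276 genes with a peak, 103 had more than 1 (8.07%) and could show it, and 43 had both kinds (3.37%). In 18 of these 43 the promoter peak was the stronger (41.9%, interval 27.0 to 57.9), with equal folds counted as not stronger. Widths in the set were mixed, with 3 of the 5 peaks above the upper quartile of the list (60%, interval 14.7 to 94.7). Those at Ier2, the Egr1 promoter and upstream of Egr1 spanned 611, 609 and 479 bp, all above the upper quartile of 434 bp, while those at Klf10 and Klf6 spanned 293 and 217 bp. The median width was 479 bp in the set and 265.5 bp over the list. The widest peak had 7 tags and the Klf10 peak with 14 tags was less than 300 bp wide, while the Egr1 promoter peak of 609 bp had 20 tags. A relation of width to strength was not tested.

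**Figure D3:**
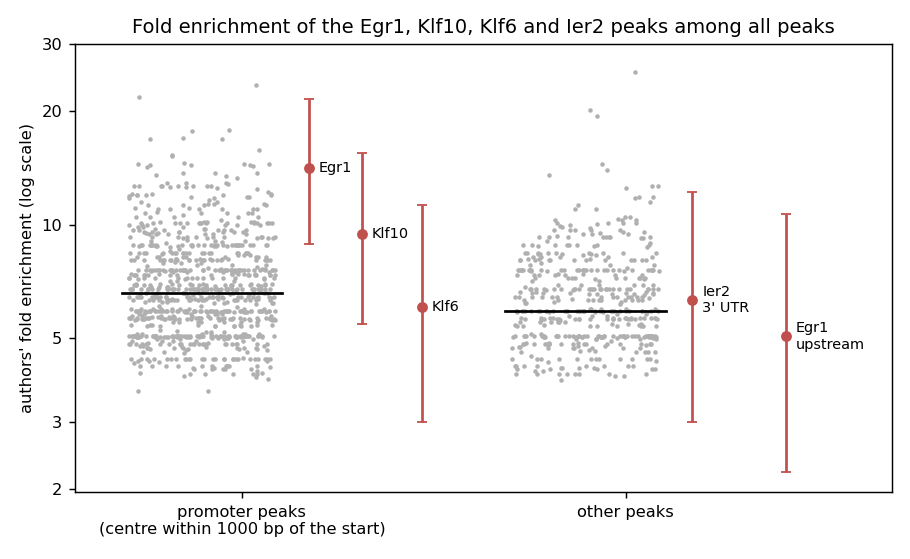
The authors' fold enrichment on a log axis for all peaks (grey points, one per peak; horizontal lines are the medians, 6.60 for promoter peaks and 5.90 for the others), with the 5 peaks of Egr1, Klf10, Klf6 and Ier2 in red beside their class with 95% exact Poisson counting intervals. Egr1 and Klf10 lie above the promoter median and Klf6 below it, and the 2 peaks outside promoters lie on either side of their median.

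The genes around these factors were examined by lists of family members and pathway partners, to be read beside the 5.38% of all protein-coding genes with a peak and the 3.79% with a promoter peak. In the Egr family with its Nab corepressors, Egr1 was the 1 gene of 6 with a peak (16.7%), and the 3 genes beyond the set, Egr4, Nab1 and Nab2, had none. In the Klf family 4 of 17 genes had a peak (23.5%), all classed as promoter peaks: Klf6, Klf10, Klf11 and Klf16. Of the 11 Klf genes beyond the set, Klf11 and Klf16 were the 2 with a peak. Klf16, a GC box binding member of the family, had the highest fold of the 4, 11.4 (6.83 to 18.2) from 16 tags over 0.485, with the summit 258 bp upstream of its start on chromosome 10 at 80577510 to 80577739. Klf11, a TGF-beta-inducible relative of Klf10, had 6.63-fold (3.16 to 12.8) in a broad peak of 1131 bp whose summit lay 711 bp downstream of the start. The Klf16, Klf10, Klf11 and Klf6 intervals overlapped one another. The closely related Sp factors had 2 of 9 genes with a peak (22.2%). Sp1 had 18 tags at its promoter over a background of 1.757 tags, a fold of 6.89 (4.23 to 10.7). Sp4 had a promoter peak of 6.91-fold and another of 5.90-fold 75.4 kb upstream.

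The serum response factor pathway had 1 of 6 genes with a peak (16.7%, beside 5.38% of protein-coding genes). It was Elk4, a partner of serum response factor, with 12 tags and a fold of 8.09 (4.48 to 13.7) in an intron, 2.69 kb downstream of its start. Srf, Elk1, Elk3, Mkl1 and Mkl2 had no peak. Of the 5 Ier genes only Ier2 had one (20%), and the 4 beyond the set, Ier3, Ier3ip1, Ier5 and Ier5l, had none. Each of these 5 lists held 1 to 4 genes with a peak, and with so few genes the shares cannot be ordered.

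**Figure D4:**
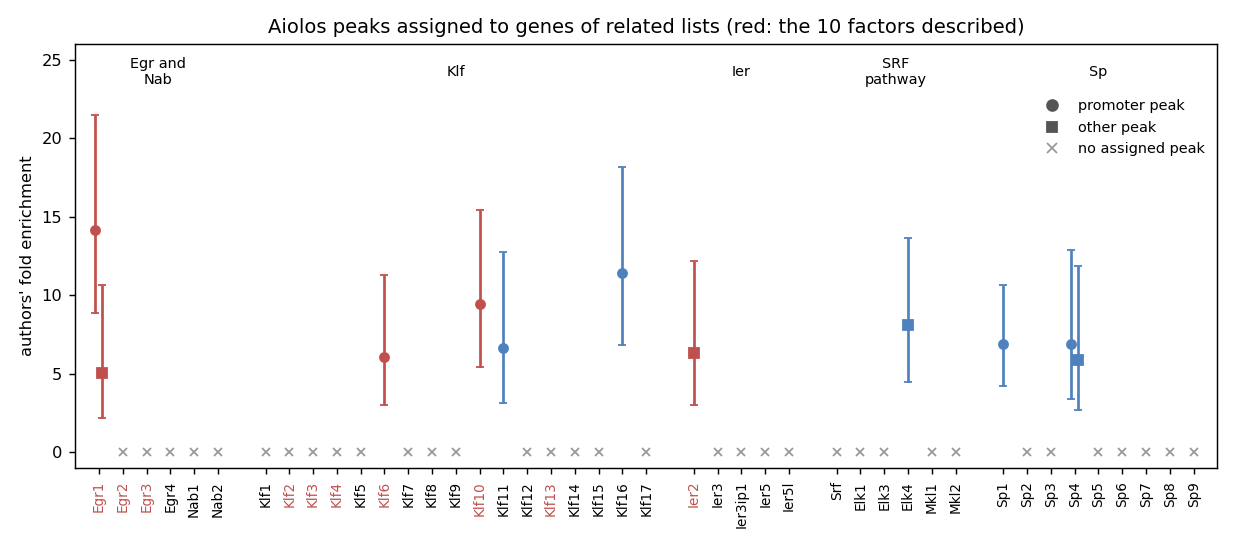
The authors' fold enrichment with 95% exact Poisson counting intervals for every peak assigned to a gene of 5 lists; circles are promoter peaks, squares other peaks, crosses at 0 genes with no assigned peak, and red marks the 10 factors described. Peaks are sparse in each list, and Egr1 and Klf16 have the highest folds at 14.1 and 11.4.

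RefSeq promoter windows, from 250 bases before to 50 after a start, were at hand for 6 of the 10 genes, Egr2, Klf2, Klf3, Klf4, Klf6 and Klf13, and no peak overlapped any of them. Egr1, Egr3, Klf10 and Ier2 had no window. There were 10 windows, 5 of them for Egr2, some of which overlap, so the windows are not independent. On either strand GGGAA occurred in 4 of the 10 windows, 1 each of Egr2, Klf3, Klf4 and Klf6, beside 62.7% of all 32851 windows. Counted by gene it was present in 4 of the 6. Its longer form TGGGAA occurred in 0 of the 10 windows, beside 25.6%. The CArG box was found in 4 windows, beside 1.63% of all windows. All 4 were of Egr2, 1 of the 6 genes, and overlapping windows shared the same copy. The Egr site GCGNGGGCG, which overlaps the GC box in part, was present in 3 of the 10 windows, those of Klf2, Klf3 and Klf4, beside 5.55%, and the Klf site CCNCACCC in that of Klf3, beside 16.6%. The GC box GGGCGG occurred in 7 of the 10 windows, with at least 1 for each of the 6 genes, beside 35.7% of all windows. TGACG occurred also in 7 of the 10, with none for Klf6, beside 20.8%. The AP-1 site TGANTCA occurred in 0 of the 10, beside 7.81%, and TGACGTCA, which contains TGACG, in 0 of the 10, beside 1.79%.

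Over the whole table, the 845 windows that a peak overlapped held GGGAA in 64.4%, and the 32006 without a peak in 62.7%. TGGGAA stood in 21.3% of windows with a peak and 25.7% of windows without, and TGANTCA in 4.50% and 7.90%. TGACG stood in 42.7% of windows with a peak and 20.2% of windows without, TGACGTCA in 3.91% and 1.73%, and the GC box in 69.5% and 34.8%. The Egr site stood in 9.47% and 5.45%, the Klf site in 17.2% and 16.6%, and the CArG box in 1.54% and 1.63%. Base composition was not matched between these windows, and its part in the shares was not tested.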

How the data were processed

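CUT&RUN was done with 1 library per group, per the labels. The authors deposited 1 peak list, and MACS2, Bowtie2 1.3.0, Picard and SAMtools with build mm10 stand in the submitters' processing notes, with no role or order. The q cutoff and the control library are not stated in the sources used here. Each peak has, per the file headers, a deposited signal value, read here as the fold enrichment (a ratio), the -log10 of the p-value and q-value, a score equal to the whole part of 10 times -log10 q, an annotated transcript and a gene. All folds and q values in the text are those of the authors' deposited table, used only to describe and rank peaks within it.

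Tags and background at each summit were solved from fold and p, taking the fold as tags plus 1 over background plus 1 and p as the Poisson chance of more tags (largest error in -log10 p 1.75e-05; tested on simulated data). Whether the library without antibody supplied the background is not stated. Duplicates of 1 molecule would make the intervals too narrow. Genes were matched by identifier to the RefSeq table (GRCm38.p6), which has positions without strand, so strand came from the deposited list. All 1404 identifiers matched. Coordinates are 1-based.

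The genes and lists were chosen with earlier results of these data known. The text names every one of the 10 genes, every listed gene with a peak, and neighbours within 50 kb. Neighbouring peaks and gene lengths were added after the values were seen. 1 planned gene list is not reported here. No set test was made. Alternatives were stricter peak sets, promoter windows of 500 and 3000 bp, the peak edge, the authors' class, merging within 500 bp, a limit of 10000 bp, tags for fold, RefSeq starts and all biotypes. Python 3.11.15, scipy 1.17.1 and pandas 2.3.3 were used.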

Additional observations from a re-analysis of the deposited data

How the results depend on the processing

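In the stricter sets, 727 peaks with a -log10 q no lower than the list's median or 687 with a fold over the median, there remained 2 of the 10 genes with a peak, Egr1 and Klf10, both at the promoter, and 2.89% or 2.73% of protein-coding genes; by construction fewer peaks were counted, and no distal median could be given. A limit of 10000 bp from the start kept all 5 peaks and 4.57% of protein-coding genes, and with all biotypes as background 2.55% of genes had a peak. The log2 difference between promoter and distal medians was 0.73 in the main setting. It was 0.64 with a window of 3000 bp, where 4 of the 5 peaks, Ier2 among them, counted as promoter peaks. With RefSeq starts, where 2 did, it was 0.96, and with tags in place of fold it was 1.22. The other alternatives that gave a difference kept the same peaks in each class, so it stayed at 0.73 and its sign could not change. Medians in tags are in another unit and were not set beside folds. With 5 to 20 tags a summit, counting error limits every order among the 5 peaks. No paired analysis was possible because the 2 libraries, 1 in each group, enter no test.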
